A study of Mus musculus with 48 samples.

Results

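Major urinary proteins are small secreted carrier proteins encoded by a cluster of related genes. The 4 genes Mup3, Mup10, Mup20 and Mup21 were followed across 48 mouse livers. They were taken by gene name from a table of 54532 genes, which also held 17 other Mup genes and 27 Mup pseudogenes. The 4 names were chosen by their measured levels in these same libraries, some of which rest on few livers, so their levels are a description and the tests on them are no independent evidence. The livers came from male wild-type C57BL/6 mice of 8 to 10 weeks kept in 12 h of light and 12 h of dark. The control arm (24 livers) stayed on that cycle, and the phase shift arm (24 livers) was given 1 advance of the light cycle by 6 h, a model of jet lag. Each arm was sampled every 4 h between day 6 and day 7 at 6 labelled Zeitgeber times (ZT0, ZT4, ZT8, ZT12, ZT16 and ZT20; ZT0 is lights on), with 4 livers per group and 12 groups in all. The arm and time come from the sample titles, since the treatment field of the labels reads alike for every library, and the labels do not say whether ZT in the shifted arm counts from the new lights-on. The labels do not tie any liver to a cage or a collection batch, so the p-values measure the spread between these livers.

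Major urinary proteins belong to the lipocalins, barrel-shaped proteins that hold small hydrophobic molecules. Male mouse liver secretes them into blood, the kidney passes them into urine, and there they bind and slowly release volatile pheromones and mark the identity and sex of the owner. Liver transcription of many Mup genes is known to depend on pulsatile growth hormone acting through STAT5B, with input from androgens, thyroid hormone and glucocorticoids. The cluster is divided into a central group of very similar genes, to which Mup10 belongs, and a more divergent peripheral group, to which Mup3, Mup20 and Mup21 belong. Mup20 encodes darcin, a male pheromone that attracts females by itself.

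The 21 Mup genes of the table lay within 2.19 Mb of chromosome 4 in the mm10 build, between bases 59956804 and 62150863, and 20 of them were on the minus strand. Mup10 (ENSMUSG00000078680) lay at chr4:60578260-60582199. The other members sat together at the far end of the cluster: Mup20 (ENSMUSG00000078672) at chr4:62050234-62054158, Mup3 (ENSMUSG00000066154) at chr4:62083476-62087342 and Mup21 (ENSMUSG00000066153) at chr4:62147932-62150863, all on the minus strand. How well reads can be assigned to each gene depends on the sequence, so 120 bases from the start of the mature-protein part of each coding sequence are shown, taken from the GENCODE M21 transcripts, with capitals where a gene differs from Mup10. The window was chosen with the sequences in view.
Mup10: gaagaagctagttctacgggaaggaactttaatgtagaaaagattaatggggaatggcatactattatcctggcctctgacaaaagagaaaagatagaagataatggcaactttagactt
Mup20: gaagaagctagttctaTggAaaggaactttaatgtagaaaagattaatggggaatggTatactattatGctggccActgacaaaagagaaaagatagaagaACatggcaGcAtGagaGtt
Mup3: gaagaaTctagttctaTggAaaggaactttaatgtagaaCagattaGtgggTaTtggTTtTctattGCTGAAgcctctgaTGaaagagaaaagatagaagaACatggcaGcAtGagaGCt
Mup21: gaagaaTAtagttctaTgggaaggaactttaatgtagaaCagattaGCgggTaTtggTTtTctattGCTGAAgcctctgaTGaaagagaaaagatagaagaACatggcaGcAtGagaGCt
In this window Mup1 and Mup11, both of the central group, had 0 differences from Mup10. Mup20 differed from Mup10 at 11 of 120 bases, Mup3 at 25 and Mup21 at 26, and Mup3 and Mup21 shared 24 of these changed bases.

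Over the aligned bases of whole transcripts, Mup10 was 98.8% identical to Mup1, 98.4% to Mup11, 89.8% to Mup20, 84.8% to Mup21 and 84.3% to Mup3. Mup3 and Mup21 were 95% identical to each other. Of all 100-base windows of a gene's annotated transcripts, 97.8% of those of Mup3, 95.5% of those of Mup21, 61.2% of those of Mup20 and 26.6% of those of Mup10 were found in no other gene. With windows of 150 bases these shares were 100% for Mup3 and Mup21, 68.9% for Mup20 and 27.7% for Mup10. The counter's rule for reads that match several genes is not given in the sources used here, so the assignment of Mup10 counts is uncertain. Among the other central genes only Mup1 and Mup11 were aligned to Mup10, so which further genes share reads with it was not examined. Mup3 and Mup21 counts rest almost wholly on sequence of their own.

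**Figure D1:**
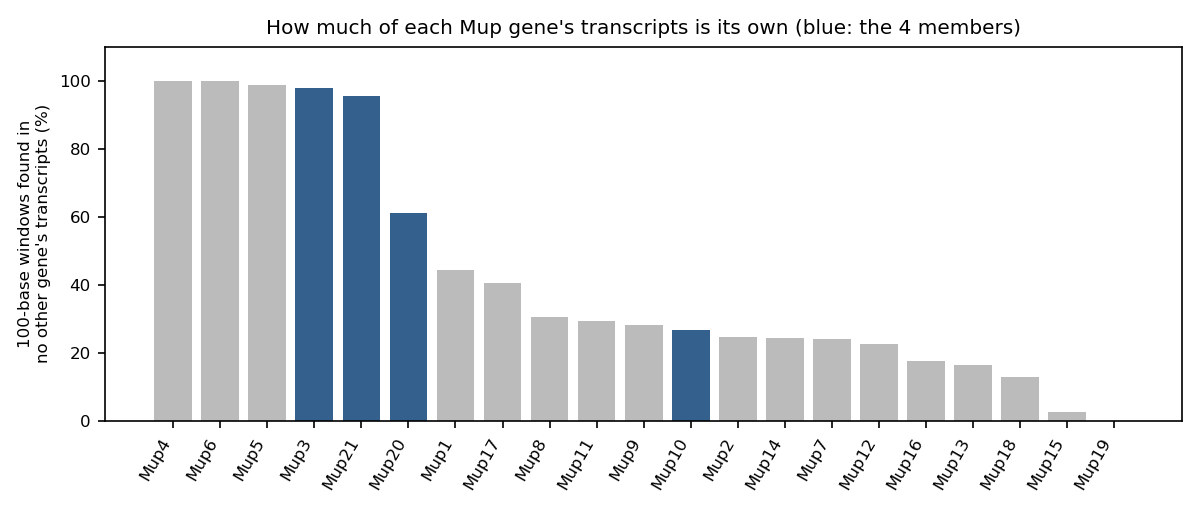
Share of the 100-base windows of each Mup gene's annotated transcripts that occur in no other gene (y axis, percent), for the 21 Mup genes of the table (x axis), members in blue. Mup3 (97.8%) and Mup21 (95.5%) stand at the high end, Mup20 (61.2%) between, and Mup10 (26.6%) among the central genes.

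Upstream sequence was available in the RefSeq promoter table (GRCm38.p6, the assembly behind mm10) for 3 of the 4 members. Mup3 and Mup21 levels varied together across livers, and whether this relates to their promoters was not tested. Each line gives the 250 bases before the RefSeq start. Capitals mark TATATAA, and ATTGAT or its reverse complement ATCAAT, the core letters read by HNF6-type factors. The gene coordinates given above start further upstream, so the last bases of each window, with the marked TATATAA, lie inside those genes. The strand is minus in each, and the coordinates are chr4:62087318-62087567 for Mup3, chr4:62150842-62151091 for Mup21 and chr4:60582156-60582405 for Mup10.
Mup3: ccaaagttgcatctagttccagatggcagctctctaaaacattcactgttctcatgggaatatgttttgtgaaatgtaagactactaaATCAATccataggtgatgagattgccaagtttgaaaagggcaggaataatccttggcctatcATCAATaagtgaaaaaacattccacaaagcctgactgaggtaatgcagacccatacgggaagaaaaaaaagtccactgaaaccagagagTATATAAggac
Mup21: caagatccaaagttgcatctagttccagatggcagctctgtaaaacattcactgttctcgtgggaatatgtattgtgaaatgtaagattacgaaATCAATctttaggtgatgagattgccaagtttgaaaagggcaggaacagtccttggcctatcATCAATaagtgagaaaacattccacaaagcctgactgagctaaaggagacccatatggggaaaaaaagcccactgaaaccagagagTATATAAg
Mup10: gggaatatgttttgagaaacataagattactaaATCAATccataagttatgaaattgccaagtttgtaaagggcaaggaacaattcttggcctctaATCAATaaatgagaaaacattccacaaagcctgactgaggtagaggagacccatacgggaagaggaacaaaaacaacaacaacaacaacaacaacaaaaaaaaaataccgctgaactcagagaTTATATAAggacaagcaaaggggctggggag
The Mup3 and Mup21 promoters were 92.3% identical, and the Mup3 and Mup10 promoters 74.5%. The Mup11 promoter was 74.4% identical to that of Mup3 and 72% to that of Mup21. Spearman's correlation of levels over 48 livers was 0.661 between Mup3 and Mup21. Mup11 stood at 0.717 with Mup3 and at 0.711 with Mup21. The 5 motifs searched on both strands, which were also chosen with the sequences in view, were the TATA box letters TATATAA, the HNF6-type core letters ATTGAT, the STAT5 site written as TTCNNNGAA, the glucocorticoid receptor half-site letters TGTTCT and the E-box letters CACGTG, which clock factors read. Only the 2 TATATAA matches in Mup10 overlap, on opposite strands. Over the same 250 bases, ATTGAT was in 14 of 14 Mup promoters of that table and in 6.72% of 32851 promoters in all, and TATATAA was in 11 of 14 against 3.04%. The glucocorticoid half-site letters were in 2 of 14 against 16.1%, the STAT5 letters in 0 of 14 against 7.02%, and the E-box letters in 0 of 14 against 6.02%. A match is a description of letters in this window, not evidence of binding.

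The libraries held 15370303 to 19639753 counts, so that 3 counts, the limit that a count of 0 allows, correspond to 0.153 to 0.195 CPM, a gene's counts scaled to the total of its library. No pair of livers within a group agreed within sampling noise. The 7 hepatocyte markers (Alb, Apoa1, Ttr and others) summed to between 70116 and 121402 CPM. Kupffer cell markers summed to between 20.3 and 792 CPM. The 5 markers of salivary or lacrimal gland, which is also known to express Mup genes, summed to between 97.3 and 276 CPM with a median of 212. Of the 5, 2 (Smr3a and Prol1) were at a median of 0 counts, and only 2 passed the filter on low counts. The sum was not split by marker, so it is no measure of gland tissue. Transcripts of the mitochondrial genome took 5.71 to 19.9% of the counts, and 9 libraries exceeded 8.73% (the median plus 2 scaled median absolute deviations). In whole liver, fewer hepatocytes and less RNA per hepatocyte cannot be told apart.

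The 4 genes differed widely in level. On the length-corrected scale, the median over 48 livers was 6767 FPKM (a level scaled for transcript length and library size) for Mup3, 1211 FPKM for Mup20, 144 FPKM for Mup21 and 2.3 FPKM for Mup10. On the CPM scale, Mup3 ran from 2259 through a median of 7530 to 10396, Mup20 from 465 through 1114 to 3139, Mup21 from 21.1 through 99 to 269 and Mup10 from 0.965 through 3.28 to 1584. Mup3, Mup20 and Mup21 thus varied 4.6-fold, 6.75-fold and 12.8-fold between the extreme livers, while Mup10 varied 1642-fold. All 4 genes had counts in every liver, at least 17 for Mup10, and all 4 passed the filter on low counts.

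**Figure D2:**
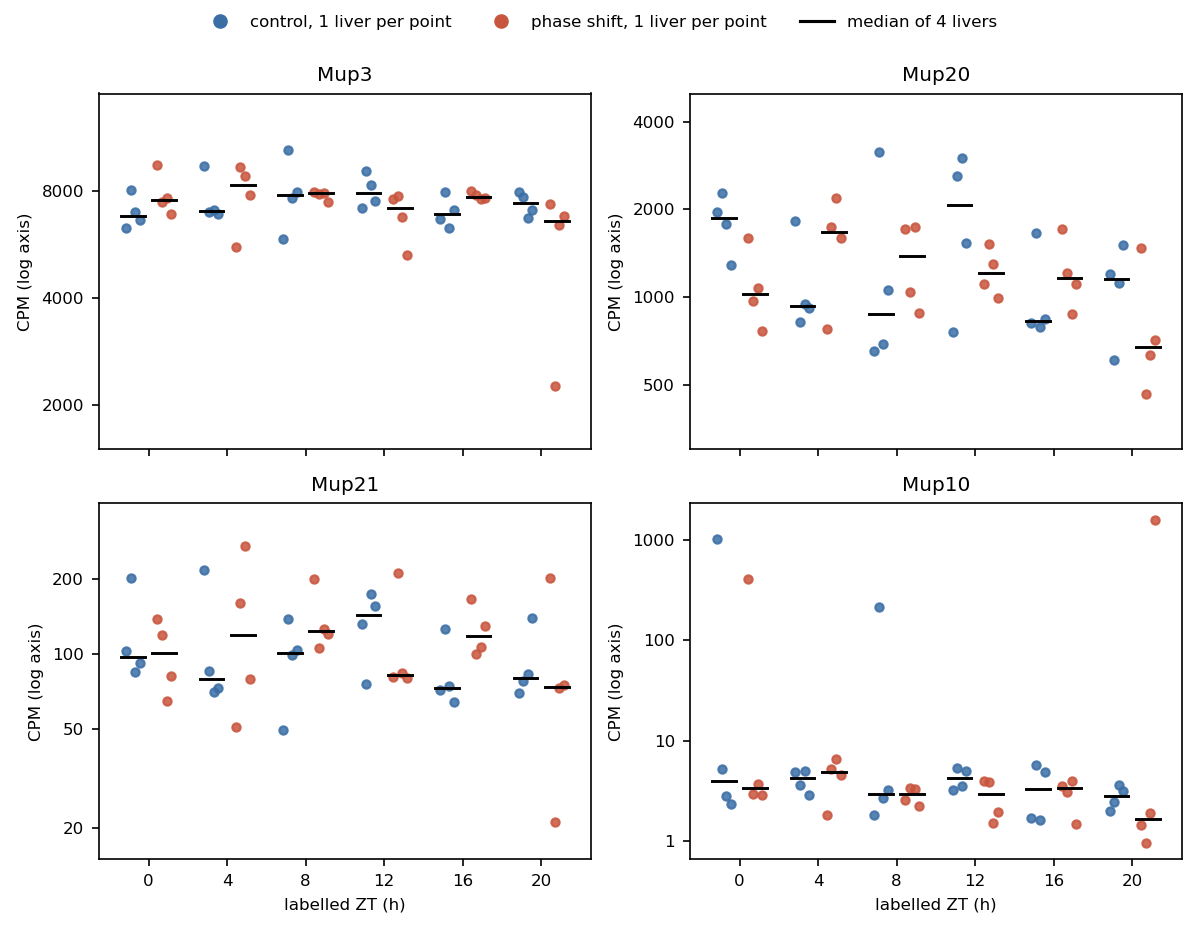
CPM of each member (y axes, log scale) in each of 48 livers against labelled ZT (x axis), control in blue and phase shift in red, with the median of each 4 livers as a bar. Mup3 stays between 5265 and 10396 in all livers but 1 at 2259, and Mup10 stays at or under 6.56 in 44 livers and reaches 216 to 1584 in 4.

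Mup10, of the central group, was low in most livers and high in 4. At phase shift ZT20, the 4 livers had 1.44, 0.965, 1.92 and 1584 CPM (replicates 1 to 4). At control ZT0 they had 1011, 5.24, 2.8 and 2.36 CPM, at phase shift ZT0 409.5, 2.99, 3.72 and 2.91 CPM, and at control ZT8 1.84, 216, 2.73 and 3.24 CPM. In each of these groups 1 liver stood far above the other 3, and in the other 8 groups none did. The other 44 livers lay between 0.965 and 6.56 CPM, with a median of 3.19, so the lowest of the 4 high livers was 33-fold above the highest of the rest and the highest was 241-fold above it. The 4 livers held 95.7% of all Mup10 counts of the series, and phase shift ZT20 replicate 4 alone held 48.8%.

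Both arms and 3 labelled times were represented among the 4 high livers. Ranked by counts among the 21 Mup genes of its own liver, Mup10 was the 4th in phase shift ZT20 replicate 4, the 5th in control ZT0 replicate 1 and the 9th in phase shift ZT0 replicate 1 and in control ZT8 replicate 2. Its median rank in the other 44 livers was the 17th. Its share of all Mup counts was 8.85% in phase shift ZT20 replicate 4 and 5.3% in control ZT0 replicate 1.

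Mup1 and Mup11, close relatives of Mup10, did not follow it in a fixed ratio. Mup1, a central-group gene that shares most of its transcript with Mup10, stood at 29.3, 23, 36.4 and 41.7 CPM in control ZT0 replicate 1, control ZT8 replicate 2, phase shift ZT0 replicate 1 and phase shift ZT20 replicate 4, against a median of 25.4 over 48 livers. Mup11, another close relative, had in these livers 384, 1543, 1358 and 175 CPM, against a median of 281. Mup11 was thus at its highest of 48 livers in control ZT8 replicate 2 and only 40th of 48 in phase shift ZT20 replicate 4, where Mup10 was highest. In the same 4 livers and order, Mup15 had 229.8, 1861, 1309 and 77.9 CPM, against a median of 153 over 48 livers. Mup19 had 131, 10.3, 436 and 216 CPM there, against a median of 26.2. Of the 4 livers, 2 (control ZT8 replicate 2 and phase shift ZT0 replicate 1) had a high mitochondrial share (12.8% and 19.9%), and the other 2 did not (6.59% and 6.39%).

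Group means of Mup10 therefore described single livers. Means ± SD (n = 4) were 397 ± 791 CPM at phase shift ZT20 and 255 ± 504 at control ZT0, and lower at phase shift ZT0 and control ZT8 (56 ± 107), with the SD above the mean in all 4. In the other 8 groups the means lay between 2.81 CPM (control ZT20, SD 0.712) and 4.54 CPM (phase shift ZT4, SD 1.99). All 11 neighbouring groups in the order of means overlapped in range.

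Mup3 was the most abundant and the steadiest member. Control livers had 6964 ± 759.9 CPM at ZT0, 7581 ± 1221 at ZT4, 7952 ± 1872 at ZT8, 7993 ± 857 at ZT12, 6986 ± 726 at ZT16 and 7341 ± 562 at ZT20 (mean ± SD, n = 4 each). Phase shift livers had 7836 ± 1109 CPM at ZT0, 7867 ± 1674 at ZT4, 7773 ± 217 at ZT8, 6835 ± 1131 at ZT12, 7739 ± 171 at ZT16 and 5693 ± 2321 at ZT20. The order ran from control ZT12 to phase shift ZT20, a 1.4-fold span of means, and no 2 neighbours in it differed beyond their spread. The lowest mean held 1 far-off liver: the phase shift ZT20 livers had 7341, 2259, 6401 and 6769 CPM. Its SD within groups, on log2 CPM, was 0.349, close to the median of 0.327 over 14555 genes tested.

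Mup20, which encodes darcin, was lower and more variable. Its group means ran from 1976 ± 1024 CPM at control ZT12 and 1824 ± 410.3 at control ZT0 down to 1025 ± 421 at control ZT16 and 822 ± 449 at phase shift ZT20. Between these lay 1576 ± 591 CPM at phase shift ZT4, 1384 ± 1185 at control ZT8, 1345 ± 446 at phase shift ZT8, 1229 ± 229 at phase shift ZT12 and 1227 ± 352 at phase shift ZT16, and lower still 1125 ± 467 at control ZT4, 1106 ± 373 at control ZT20 and 1101 ± 356 at phase shift ZT0. Neighbours in this order overlapped in range throughout, and a few livers stood out. At control ZT8 the livers had 649.8, 3139, 687 and 1059 CPM, and at control ZT12 they had 759, 2609.6, 3006 and 1529 CPM. At control ZT0 all 4 livers (1956, 2272, 1778 and 1290.4 CPM) were above the series median of 1114. At phase shift ZT0 they had 1599, 970.2, 1077 and 761 CPM, so that the 2 arms overlapped only through replicate 1 of the phase shift and replicate 4 of the control. The SD within groups was 0.659 on log2 CPM, at percentile 85.3 of the genes tested.

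Mup21, the last gene of the cluster, was the least abundant of the peripheral members. Its group means ran from 139.6 ± 97.8 CPM at phase shift ZT4, where the livers had 50.9, 159, 269 and 79.3 CPM, to 83.9 ± 28.5 CPM at control ZT16, where they had 71.6, 126, 73.9 and 63.8 CPM. Between them lay phase shift ZT8 (138 ± 42.1), control ZT12 (134 ± 42.5), phase shift ZT16 (125 ± 30), control ZT0 (119.8 ± 54.6), phase shift ZT12 (113 ± 64.2), control ZT4 (111 ± 70.6), phase shift ZT0 (101 ± 33.8), control ZT8 (97.5 ± 36.4), phase shift ZT20 (92.3 ± 76.5) and control ZT20 (92.2 ± 31.5). Neighbours in that order overlapped throughout. The phase shift ZT20 livers, at 201, 21.1, 72.8 and 74.6 CPM, included the lowest liver of the series. Its SD within groups was 0.724 on log2 CPM, at percentile 90, and that of Mup10 was 2.406, at percentile 100.

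The first question of the design was whether the arms differ. At each labelled time the ranges of control and phase shift livers overlapped for 4 of 4 members, while ranges did not overlap for 3.81% of all genes tested at ZT0, 3.7% at ZT4, 4.02% at ZT8, 4.34% at ZT12, 4.82% at ZT16 and 3.41% at ZT20. In edgeR's quasi-likelihood test across 14555 genes, with Benjamini-Hochberg adjustment over all of them and a threshold of 0.05, 0 of 4 members differed between arms at any single time. The background was low: 0% of genes passed at ZT0, 0.117% at ZT4, 0.131% at ZT8, 0% at ZT12, 0% at ZT16 and 0.295% at ZT20. Without adjustment, p was under 0.05 only for Mup10, at ZT8 and ZT20. DESeq2 and limma-voom also called 0 members at any single time, DESeq2 giving no p for Mup10, whose outlying counts its filter sets aside. Over all genes, DESeq2 called 0, 104, 67, 0, 0 and 60 in order from ZT0 to ZT20. In the same order limma-voom called 0, 15, 11, 0, 0 and 0.

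The fitted arm differences of Mup10 followed its single high livers. At ZT20 the phase shift group was higher by 7.05 on the log2 scale (SE 2.10, edgeR adjusted p = 0.214), and without phase shift ZT20 replicate 4 the difference was -1.01. Its adjusted p at ZT20 was 0.0456 when the mitochondrial share was a covariate, with a difference of 8.02. At ZT8 the phase shift group stood at -4.49 (SE 1.91, edgeR adjusted p = 0.373), and without control ZT8 replicate 2 at 0.16. On log-scale values the differences were 1.53 at ZT20 by limma-voom and by limma on FPKM, and -1.28 and -1.49 at ZT8. At ZT0, where each arm had 1 high liver, the difference was -1.03 (SE 1.59), and it was 5.24 without control ZT0 replicate 1 and -6.32 without phase shift ZT0 replicate 1.

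**Figure D3:**
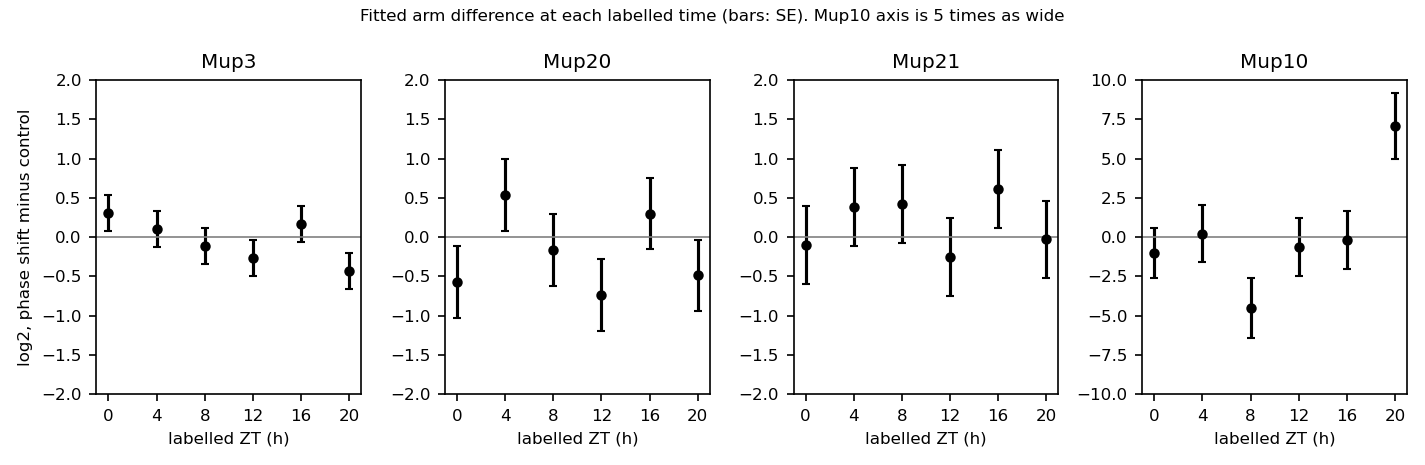
Fitted log2 difference, phase shift minus control (y axes), at each labelled ZT (x axis) for each member, with bars for the SE and a wider y axis for Mup10. Mup3 stays within -0.43 and 0.31, whereas Mup10 spans -4.49 to 7.05.

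Averaged over the 6 times, the phase shift minus control difference on the log2 scale was -0.04 (SE 0.09) for Mup3, -0.19 (SE 0.19) for Mup20, 0.17 (SE 0.20) for Mup21 and 0.15 (SE 0.73) for Mup10, each with an edgeR adjusted p of 1. For the average, 0% of all genes passed, and 939 of 14555 had an unadjusted p under 0.05, none of them a member. The test for an arm difference that changes with time called 0 of 4 members (0.137% of all genes), with an edgeR adjusted p of 0.385 for Mup10 and of 0.601 to 0.898 for the others. Among single times the fitted Mup3 difference was farthest from 0 at ZT20 (-0.43, SE 0.23, edgeR adjusted p = 0.731), and without phase shift ZT20 replicate 2 this value was -0.16. Mup20 stood at -0.74 at ZT12 (SE 0.46, edgeR adjusted p = 0.806) and at 0.53 at ZT4 (SE 0.46, edgeR adjusted p = 0.796).

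The second question was whether the genes vary over the day. In a model with a 24 h wave in each arm, Mup3, Mup20 and Mup21 did not pass in either arm: the amplitudes on the log2 scale were 0.12 and 0.13 for Mup3, 0.20 and 0.32 for Mup20 and 0.16 and 0.24 for Mup21 (control, then phase shift), with edgeR adjusted p between 0.414 and 0.8. Their unadjusted p was over 0.05 in each of these tests. By the same test 27.3% of all genes passed in control and 28.2% in phase shift. Tests for any difference among the 6 times called 0 of these 3 members in either arm, against 19.2% of all genes in control and 21.2% in phase shift.

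Mup10 was called in both arms by these tests, on few livers. The fitted wave had an amplitude of 3.26 on the log2 scale with its peak at ZT 3.01 in control (edgeR adjusted p = 0.0259), and of 3.86 with its peak at ZT 21.4 in phase shift (edgeR adjusted p = 0.00116). For any difference among times the adjusted p was 0.00582 in control and 0.00114 in phase shift. Each arm held 2 of the high livers, so leaving out any single library left 1 or more in place, and the waves stayed called with adjusted p of 0.00632 to 0.0449 in control and 0.000104 to 0.00831 in phase shift. The peak moved with the library left out: in control it was at ZT 8.1 without ZT0 replicate 1 and at ZT 23.94 without ZT8 replicate 2, and in phase shift at ZT 23.81 without ZT20 replicate 4. On log-scale values, limma-voom did not call Mup10 (adjusted p = 0.824 in control and 0.536 in phase shift), nor did limma on the FPKM values (0.7 and 0.4). The call for any difference among times was lost as well, with adjusted p of 0.943 and 0.939 by limma-voom and of 0.818 and 0.799 by limma on FPKM (control, then phase shift). The medians of the 12 groups lay between 1.68 and 4.89 CPM, since no group had more than 1 liver above 6.56 CPM. The difference in wave between arms did not pass for any member (0.186% of all genes), with an edgeR adjusted p of 0.131 for Mup10, and of 0.00556 without control ZT0 replicate 1.

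The members made up a changing part of the Mup output of a liver. Summed CPM of the 21 Mup genes ran from 3749 in phase shift ZT20 replicate 2 through a median of 17162 to 27553 in phase shift ZT4 replicate 3, which is 0.375 to 2.76% of all counts. Over all livers Mup3 held 43.3% of Mup counts, Mup20 7.7%, Mup21 0.658% and Mup10 0.41%. The share of Mup3 within a liver ran from 29.7% in control ZT16 replicate 2 to 76.5% in phase shift ZT4 replicate 1. How the variation in the sum divides among the genes was not computed. Mup7 and Mup12, central-group genes, held 21.7% and 12.7% of Mup counts. Mup7 ranged from 298 to 8576 CPM and Mup12 from 200.3 to 5312 CPM. Mup3 ranged from 2259 to 10396 CPM, which is 4.6-fold.

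**Figure D4:**
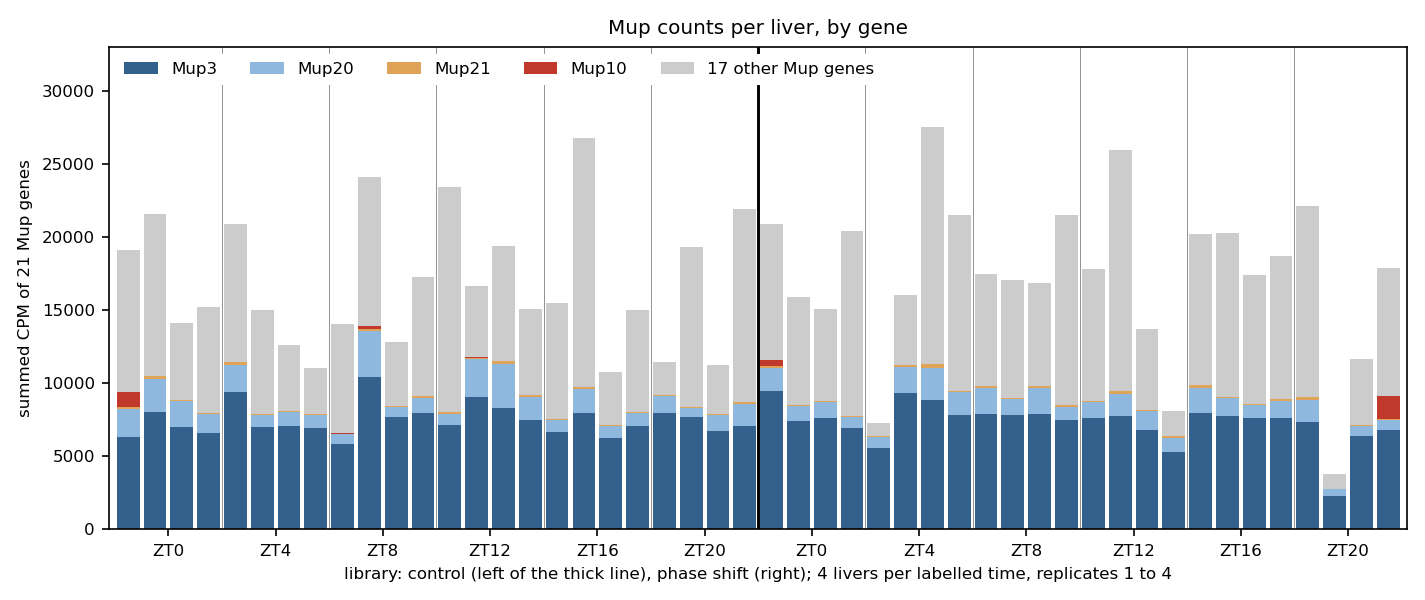
Summed CPM of the 21 Mup genes (y axis) in each of 48 livers (x axis, by arm and labelled ZT), split by gene. Mup3 forms a base of similar height in most livers, Mup10 is visible in 4 livers at 216 to 1584 CPM, and the sum falls to 3749 CPM in phase shift ZT20 replicate 2.

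Mup3, Mup20 and Mup21 varied together from liver to liver. Over 48 livers Spearman's correlation of TMM-scaled log2 CPM was 0.637 between Mup3 and Mup20, 0.661 between Mup3 and Mup21 and 0.693 between Mup20 and Mup21. After the group means were subtracted, Pearson's correlation was 0.702, 0.739 and 0.679 for the same pairs. With Mup3, Mup20 and Mup21 in turn, the Spearman values of Mup11 were 0.717, 0.678 and 0.711 and those of Mup7 were 0.109, 0.044 and 0.417. For Mup10 they were 0.498, 0.546 and 0.358 over 48 livers, and 0.592, 0.554 and 0.395 over the 44 livers outside its separate high range. These are descriptions over libraries that share depth and composition.

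**Figure D5:**
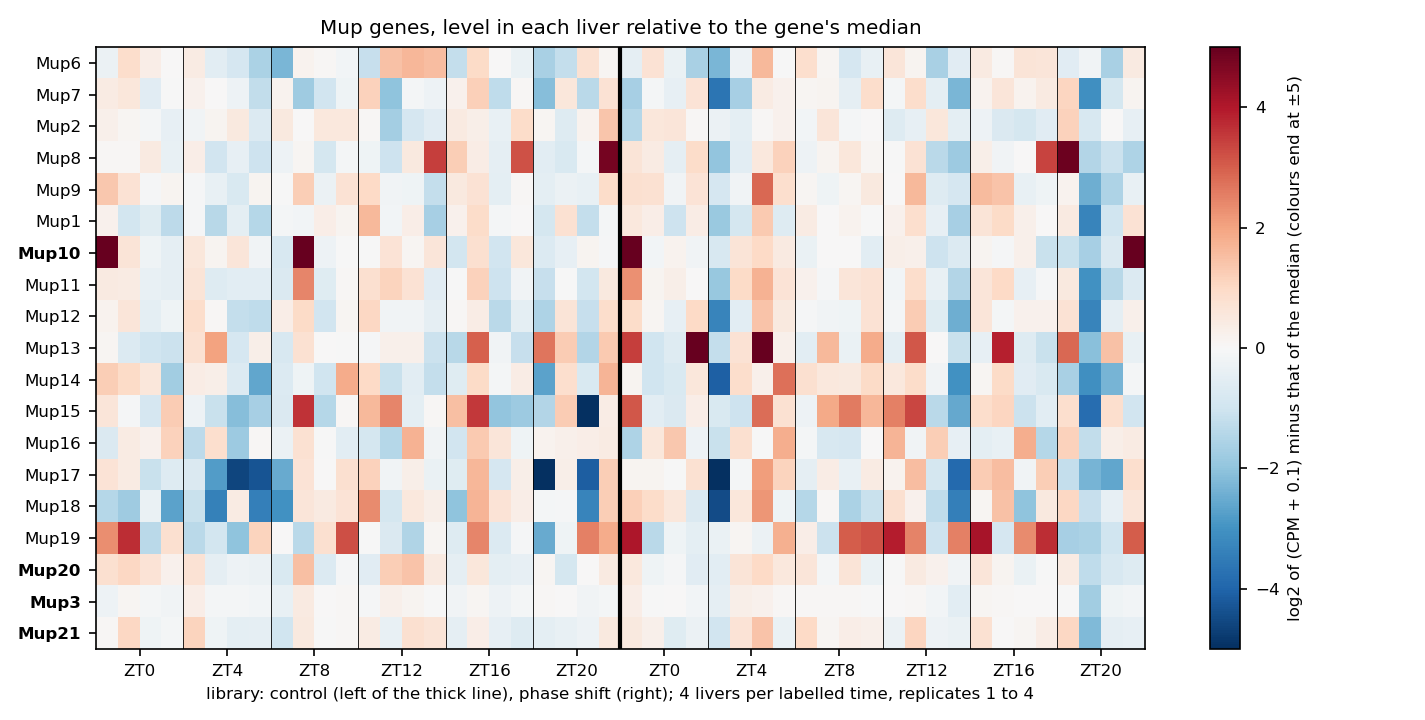
Level of each Mup gene with a median above 0 (rows, in order along chromosome 4, members in bold) in each of 48 livers (columns), as log2 of CPM + 0.1 relative to the gene's median. The Mup3 row is nearly even, the Mup10 row has 4 livers far above the rest, and phase shift ZT20 replicate 2 is low for all 4 members.

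Among genes outside the family, those most like Mup3 by Spearman's correlation over 48 livers were Serpina11 (0.741), Serpina1a (0.74), a gene for alpha-1 antitrypsin, and Atp6v0d1 (0.737), a subunit of the vacuolar proton pump. Those most like Mup20 included H13 (0.736), which encodes signal peptide peptidase, and Serpina12 (0.73), the gene of vaspin. Mup21 was closest to C6 (0.684), a complement component, Cyp2d9 (0.669), a male-biased cytochrome P450, and the pseudogene Gstp-ps (0.668). Within groups, Pearson's correlation for the leading gene was 0.841 for Mup3 and 0.73 for Mup21.

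Median levels of the 4 members were higher in the livers with a high mitochondrial share. The medians were 9053 CPM of Mup3 in these 9 livers against 7141 in the other 39, 1743 against 1059 for Mup20, 138 against 85.3 for Mup21 and 5.22 against 3.16 for Mup10. Of the 8 livers with the most of each gene, 6 were among these 9 for Mup3, 4 for Mup20, 4 for Mup10 and 2 for Mup21. In the same 9 livers the Kupffer cell markers summed to 20.3 to 232 CPM (median 77.9) against 163 to 792 (median 370.2) in the other 39. Markers of sinusoidal endothelial cells summed to 27.1 to 188 CPM (median 67) against 118 to 444 (median 295). The hepatocyte markers summed to 70116 to 121402 CPM (median 82229) against 73929 to 111674 (median 91671). The part of these differences in the members' levels was not tested. When mitochondrial counts were taken out of the library totals, the Mup3 medians were 10632 and 7636 CPM. In fits without these libraries, the average arm difference was called for 0 of 4 members and for 0 genes in all.

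All 4 members were lowest in the same liver, phase shift ZT20 replicate 2. It had 2259 CPM of Mup3, 465 of Mup20, 21.1 of Mup21 and 0.965 of Mup10. Its summed male-biased liver genes (Cyp4a12a, Hsd3b5, Cyp7b1 and others) were 5163 CPM, the lowest of 48. Hsd3b5, a male-biased steroid enzyme, was at 8 CPM against a median of 142. Elovl3, also male-biased, was near its median, at 144 CPM against 159.6, the 27th highest. The summed female-biased genes of this liver were 502 CPM, the 8th highest, against a median of 410.4. Among them Cyp2a4, a cytochrome P450, was at 41.9 CPM, its highest, against a median of 1.64. Separately, Mki67, a marker of dividing cells, was at 88.4 CPM against a median of 1.38. Hepatocyte markers in this liver summed to 111674 CPM and Alb, the albumin gene, was at 90545 CPM, the 2nd highest, with a mitochondrial share of 7.01%. The liver with the next lowest Mup sum, phase shift ZT4 replicate 1 (7256 CPM), had the 2nd lowest male-biased sum (5814 CPM), the 10th highest female-biased sum (491 CPM) and the highest level of Cyp2b9 (86.3 CPM against a median of 0.939), a female-biased cytochrome P450. Phase shift ZT12 replicate 4, with the 3rd lowest Mup sum (8087 CPM), had a male-biased sum of 8495 CPM, the 44th highest, against a median of 11603. Its female-biased sum was 428 CPM, the 17th highest. The part of these liver-wide differences in the members' levels was not tested.

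None of the listed genes known to act on Mup transcription passed the test of the average arm difference, as 0% of all 14555 genes did. Of 14 genes of growth hormone signalling, 14 were tested and 0 passed, with a median log2 difference of 0.005 against -0.001 over all genes. The value was 0.04 (SE 0.05) for Ghr, the growth hormone receptor, and 0.15 (SE 0.27) for Socs2, a feedback inhibitor. Of 13 sex-biased regulators downstream of growth hormone 0 passed (median 0.043), and Bcl6, a repressor that is male-biased in liver, had the smallest unadjusted p of the listed genes, with a log2 difference of 1.32 (SE 0.32, edgeR adjusted p = 0.197). Of 8 nuclear hormone receptors 0 passed (median -0.046), Esr1, the oestrogen receptor, standing at -0.27 (SE 0.09, edgeR adjusted p = 0.511). Of 22 male-biased liver genes tested, 0 passed and the median was 0.068, with Cyp7b1, an oxysterol hydroxylase, at 0.38 (SE 0.19). Of 21 female-biased genes tested, out of 31 listed, 0 passed, with a median of 0.041. Other lipocalins and plasma carriers also gave 0 of 15, with a median of 0.031, and Apom, a lipocalin of lipoproteins, stood at 0.12 (SE 0.05).

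The same lists were counted for the daily wave, which 27.3% of all genes had in control and 28.2% in phase shift. In growth hormone signalling 6 of 14 genes passed in control and 6 of 14 in phase shift. Stat5b, which carries the growth hormone signal to the nucleus, had an amplitude of 0.54 on the log2 scale with its peak at ZT 0.29 in control (edgeR adjusted p = 6.51e-05) and of 0.34 with its peak at ZT 0.36 in phase shift (edgeR adjusted p = 0.0123). Of the nuclear receptors 6 of 8 passed in each arm, Rxra, the shared partner of thyroid hormone and other receptors, with an amplitude of 0.25 in control and 0.26 in phase shift. Among male-biased genes 4 of 22 passed in each arm, led by Elovl3, a fatty acid elongase, with amplitudes of 1.88 in control and 1.6 in phase shift. Of the regulators downstream of growth hormone 5 of 13 passed in each arm, of the female-biased genes 3 and 6 of 21, and of the lipocalins and carriers 3 and 1 of 15. Of the 17 other Mup genes, 3 passed in control (Mup8, Mup5 and Mup4) and 1 in phase shift (Mup8). Mup4 and Mup5 had counts in only 17 and 10 of 48 livers. Of 27 Mup pseudogenes 11 were tested, of which 1 passed in control and 4 in phase shift.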

How the data were processed

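Liver RNA of 48 mice was extracted with TRIzol and sequenced by a service company, per the labels' protocols. The submitters' processing notes name the mm10 build. No source used here names the aligner or the counter. The authors deposited raw counts per gene and FPKM values per gene, per the file headers, with all 48 value columns matched to sample titles and 0 left over. Counts and FPKM come from the same reads.

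CPM was computed from the deposited counts over the library total. Genes were filtered with filterByExpr on the 12 groups (14555 kept), scaled by TMM and tested with edgeR 4.0.16 (R 4.3.3; quasi-likelihood, robust), with all 48 libraries sharing the estimate of spread, in a fit of 12 groups and in a fit of a 24 h cosine and sine per arm. P-values were adjusted over all genes tested (Benjamini-Hochberg). Alternatives were DESeq2 1.42.0, limma 3.58.1 (voom, and log2 of FPKM + 0.1), no filter, each library left out, libraries with a high mitochondrial share left out or that share as a covariate, a replicate block, scaling without Mup genes and, for single times, only the 8 libraries of that time. The edgeR steps were tested on simulated data. Correlations used log2 CPM with a prior count of 2. The members, the gene lists, the sequence window and the motifs were chosen with earlier results of these data known. Genes named are the members, other Mup genes, for each member the 3 genes of highest Spearman correlation (1 of them is not reported here), up to 4 listed genes per list by smallest p for the average arm difference, and those with called waves or in extreme livers, which were chosen after their values were seen. Serum metabolites and Mup22 were not analysed here.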

Additional observations from a re-analysis of the deposited data

Results flagged for a closer look

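In 48 groups of 4 livers (12 groups for each of 4 genes), the gap between the extreme liver and its nearest neighbour exceeded Dixon's 95% critical value in 13 cases, 12 of them high and 1 low. In normally distributed values chance alone flags about 1 in 20 groups, and whether that rate holds for CPM was not tested. The 4 genes share livers, so the cases are not independent. The members were chosen with these levels known, so the 13 cases are a description.

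Of these, 4 were the high Mup10 livers: 1011 CPM in control ZT0 replicate 1 (next highest 5.24), 216 CPM in control ZT8 replicate 2 (next 3.24), 409.5 CPM in phase shift ZT0 replicate 1 (next 3.72) and 1584 CPM in phase shift ZT20 replicate 4 (next 1.92).

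Control ZT4 replicate 1, a liver with a high mitochondrial share (11.5%), stood apart for the other 3 genes, with 9411 CPM of Mup3 (next 7045), 1821 of Mup20 (next 944) and 217 of Mup21 (next 85.3). Control ZT16 replicate 2 stood apart for Mup20 (1656 CPM, next 842) and Mup21 (126 CPM, next 73.9). Control ZT8 replicate 2 stood apart for Mup20 (3139 CPM, next 1059). Mup21 was also far above its group in control ZT0 replicate 2 (201 CPM, next 102) and in phase shift ZT12 replicate 2 (209.7 CPM, next 83.9). The low case was Mup3 in phase shift ZT8 replicate 4, at 7452 CPM against 7837 in the nearest liver, a gap that is small beside the spread of other groups.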

How the results depend on the processing

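The direction of the arm differences, none of which passed the threshold in the reported fit, changed under several settings; the cause was not tested. With the 9 high mitochondrial libraries left out, the log2 differences were -0.05 (Mup3, ZT4), 0.11 (Mup3, ZT8), -0.26 (Mup10, ZT4), 0.06 (Mup10, ZT8), 0.61 (Mup20, ZT8) and -0.21 (Mup21, ZT4), and the averages over times came to -0.02 for Mup10 and -0.00 for Mup21. With that share as a covariate they were -0.03 and 0.02 (Mup3, ZT4 and ZT8), -0.69, 0.36 and 0.03 (Mup10, ZT4, ZT12 and ZT16), 0.26 (Mup20, ZT8) and 0.17 (Mup21, ZT20). Limma-voom gave -0.13 for the average of Mup10 and 0.16 for Mup20 at ZT8, and limma on FPKM gave -0.14 and 0.16. The adjusted p of the Mup10 wave was 0.824 in control and 0.536 in phase shift by limma-voom, and 0.7 and 0.4 by limma on FPKM.

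Leaving out each library in turn gave ranges of -0.07 to 0.01 for the average of Mup3, -1.19 to 1.20 for Mup10, -0.27 to -0.03 for Mup20 (the last without control ZT8 replicate 2) and 0.05 (without phase shift ZT20 replicate 1) to 0.27 for Mup21. At single times they were -0.25 to 0.13 (Mup3, ZT8), -6.32 to 5.24, -0.06 to 0.48, -4.90 to 0.16, -0.42 to 0.14 and -1.01 to 7.47 (Mup10, ZT0, ZT4, ZT8, ZT16 and ZT20), 0.30 to 0.91 and -0.42 to 0.77 (Mup20, ZT4 and ZT8) and -0.38 to 0.25, -0.19 to 0.99 and -0.76 to 0.30 (Mup21, ZT0, ZT4 and ZT20). The adjusted p for the difference in wave of Mup10 ran from 0.00556 to 0.567.

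Replicate numbers are shared by all groups in the titles, but same-numbered livers did not deviate together (median correlation 0.006 over 264 pairs, from -0.586 to 0.733; 11 of 48 livers matched best with their own number). With the numbers as a replicate block, the adjusted p of the Mup10 wave in control was 0.144 and that for any time difference in control 0.117. It changed no other call of a member. DESeq2 gave no p for Mup10. Counts of Mup10 depend on how reads shared with other Mup genes, Mup1 and Mup11 among them, were assigned. With 4 livers per group, the differences that could be seen are limited.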

Other observations

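Mup10 was not the only gene of the cluster with few high livers. Among the Mup genes with counts in all livers, Mup8 exceeded 10 times its median in 4 livers, Mup13 in 4, Mup15 in 3 and Mup19 in 5, while Mup3, Mup20 and Mup21 did so in 0. The Mup13 livers were phase shift ZT4 replicate 3 (737 CPM against a median of 13.4), phase shift ZT0 replicate 4 (586 CPM), phase shift ZT16 replicate 2 (199.9 CPM) and phase shift ZT0 replicate 1 (148 CPM), of which the last was also high for Mup10. The Mup8 livers were phase shift ZT20 replicate 1 (77.5 CPM against a median of 2.51), control ZT20 replicate 4 (72.6 CPM), control ZT12 replicate 4 (28.9 CPM) and phase shift ZT16 replicate 4 (27.1 CPM), none of them high for Mup10. Of the 3 Mup15 livers, 1 (control ZT8 replicate 2) was also high for Mup10. Of the 5 Mup19 livers, 1 (phase shift ZT0 replicate 1) was. Of the 100-base windows of Mup13, Mup15 and Mup19, 16.4%, 2.66% and 0% were found in no other gene, so for Mup15 and Mup19 the assignment of reads is the least certain.

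At ZT4 the other Mup genes had a median log2 difference of 1.04, phase shift minus control, with 14 of 17 higher and 0 called by edgeR, while 49.3% of all genes tested were higher and 0.117% were called. The 4 phase shift livers of that time had both the highest Mup sum of the series, 27553 CPM, and the 2nd lowest, 7256 CPM. The 17 genes were measured in the same livers and many of them share sequence, so they are not separate observations.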
